A study of Schizosaccharomyces pombe with 9 samples.

Results

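Fission yeast cells destroy many RNAs inside the nucleus, and 10 genes of that machinery are described here in 3 strains: mmi1, erh1, red1, mtl1, pab2, rrp6, dis3, cti1, mtr4 and cid14. They were taken by their systematic names from a count table of 6988 features. All 10 passed the filter on low counts, which left 6227 features to be tested.

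The nuclear exosome is a barrel of protein subunits that degrades RNA from its 3′ end, with Dis3 as its catalytic subunit and Rrp6 as a second nuclease found in the nucleus. Adaptor complexes bring RNA to it: TRAMP joins the helicase Mtr4 to the poly(A) polymerase Cid14, while MTREC (also called NURS) is built on the scaffold Red1 and the Mtr4-like helicase Mtl1. During vegetative growth the YTH-domain protein Mmi1, bound to Erh1, recognises a short repeated motif in meiotic transcripts and hands them to MTREC and the exosome, so that the meiotic program stays silent.

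Polyadenylated RNA was sequenced from log-phase, vegetatively growing h- cultures in YES, a rich medium, at 30 °C. The 3 groups were the wild-type strain Sp1 (WT), strain ASY240 labelled as an rsm1 knockout (rsm1∆::natMX), and strain IAP105, which carries nup211-1435* together with asp1-WT::kanMX (the nup211 mutant below, nup211-1435 in the plots). Each group had 3 biological replicates. The labels do not say whether these were separate cultures, so the p-values measure the spread between these samples. Nup211, the yeast relative of the pore protein TPR, and the RNA export factor Rsm1 sit at the nuclear face of the pore, and the study's title names their influence on RNA 3′ ends and on where transcription stops as its subject. Each mutant also differs from WT by its drug-resistance marker (kanMX sits at asp1 in the nup211 strain), and mutation and marker cannot be told apart.

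Depth was 20.98 to 28.11 M counts a library, and the biological coefficient of variation was 3.95%. The rsm1 gene itself still had 31.0 to 33.2 CPM in the libraries labelled rsm1 deletion, against 36.3 to 37.1 in WT. CPM are read counts relative to library size, normalised by the TMM method. The annotation used for counting is not given, so whether the rsm1 counts include untranslated exon is not known. They do not check the deletion, and the libraries are named by their label throughout. The nup211 gene had 180.0 ± 10.5 CPM in WT, 249 ± 16.7 in rsm1 deletion and 267 ± 8.23 in the nup211 mutant (SD, n = 3). The asp1 gene, which carries kanMX in the nup211 mutant, had 130.7 ± 2.28, 149 ± 5.41 and 198.8 ± 2.13 CPM in the same order. What its higher level contributed to the results was not tested. The 5 markers of h- cells summed to 112.5 to 136.5 CPM in WT, 100.6 to 109.0 in rsm1 deletion and 62.0 to 68.1 in the nup211 mutant. The 3 markers of h+ cells summed to 40.5 to 43.6, 60.9 to 69.2 and 40.7 to 41.1 CPM. Of the h- markers 3 of 5 fell and 1 rose in rsm1 deletion and 4 fell and 1 rose in the nup211 mutant, and 2 of the 3 h+ markers rose in rsm1 deletion. No marker was at 0 in any library, though mfm1 fell as low as 0.0398 CPM, and the part of these shifts in the results was not tested.

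Transcripts of the machinery were unequally abundant in WT. In CPM per kb of annotated exon, pab2 led with 139 ± 3.84, and its libraries overlapped those of erh1 at 135 ± 2.85 (SD, n = 3 for every group). The helicase gene mtr4 followed at 91.9 ± 2.35. The genes cid14, at 69.4 ± 2.63, and dis3, at 69.2 ± 2.25, could not be ordered because their libraries overlapped. Below them came rrp6 at 62.6 ± 2.33, cti1 at 50.6 ± 1.71, red1 at 45.5 ± 1.98, mtl1 at 40.6 ± 0.76 and mmi1 at 32.6 ± 0.77 CPM per kb, none of which overlapped its neighbour. By this measure the RNA-recognition factor mmi1 was the lowest of the 10, at percentile 40.7 of 4995 protein-coding features. The median of those features was 41.0 CPM per kb, and pab2 stood at percentile 82.9. The order rests on the reference exon lengths: erh1 is annotated with its coding part alone (315 nt), which raises its value relative to genes whose untranslated parts are included. In mmi1 only 1467 of 2753 nt are coding, in cti1 402 of 1471 nt and in pab2 501 of 1256 nt. Their values are lowered if untranslated exon was not counted, so the last place of mmi1 is not settled.

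The order was not the same in the mutants. In rsm1 deletion the nuclease gene rrp6, at 82.5 ± 1.39 CPM per kb, lay above cid14 (73.5 ± 0.96) and dis3 (64.2 ± 1.26), and mtl1, at 50.3 ± 0.17, lay above cti1 (37.6 ± 1.03) and red1 (34.7 ± 0.38). The nup211 mutant had rrp6 at 84.4 ± 1.62 and mtl1 at 54.7 ± 1.82 CPM per kb. In that strain dis3 (74.7 ± 0.73) lay above cid14 (67.0 ± 1.75), and red1 (37.3 ± 0.81) above cti1 (35.6 ± 0.61), without overlap. There mtr4, at 111 ± 4.09, overlapped erh1 at 119 ± 7.20. By the same measure, with the same limit on exon lengths, mmi1 was lowest in both mutants, at 29.9 ± 0.79 and 30.8 ± 0.45 CPM per kb.

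**Figure D1:**
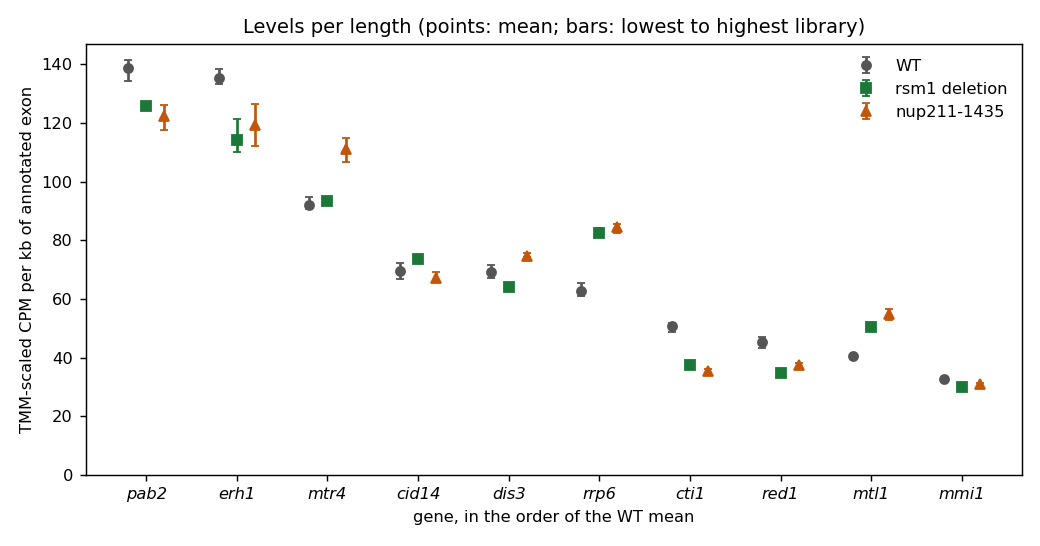
Level of each gene in TMM-scaled CPM per kb of annotated exon (vertical axis) in WT, rsm1 deletion and the nup211 mutant. Points are means of 3 libraries and bars reach from the lowest to the highest library; rrp6 and mtl1 stand above their WT points in both mutants, while red1 and cti1 stand below them.

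Genes of the machinery changed in both directions in each mutant, as features at large did. In rsm1 deletion against WT, 3 of the 10 genes rose and 6 fell (edgeR's quasi-likelihood test over all features, adjusted p under 0.05). Of all 6227 features tested, 70.7% were called in that comparison, 36.7% rising and 34.1% falling. Against WT, 4 genes rose and 4 fell in the nup211 mutant, beside 64.9% of all features called, 32.9% rising and 32.0% falling. Between the nup211 mutant and rsm1 deletion 4 genes were higher and 1 was lower in the nup211 mutant, beside 50.2% called, 24.5% higher and 25.7% lower. The 2 comparisons with WT share the same WT libraries. Library groups did not overlap for 9 of the 10 genes in rsm1 deletion against WT, beside 74.1% of all features. The values were 9 and 67.8% for the nup211 mutant against WT, and 6 and 59% between the mutants. At these backgrounds neither a call nor a separation of the groups alone says much about the 10 genes. The size of their changes was also ordinary: the median absolute log2 fold change was 0.193 for the 10 genes and 0.282 for all features in rsm1 deletion, and 0.228 and 0.231 in the nup211 mutant. The median signed change was -0.12 in rsm1 deletion and -0.07 in the nup211 mutant, beside 0.014 and 0.007 for all features. With scaling by total counts in place of TMM, 4 rose and 2 fell in rsm1 deletion and 5 rose and 2 fell in the nup211 mutant. Of all features 72.7% and 69.2% were called under it. That scaling shifted the median of all features by 0.143 and 0.135.

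**Figure D2:**
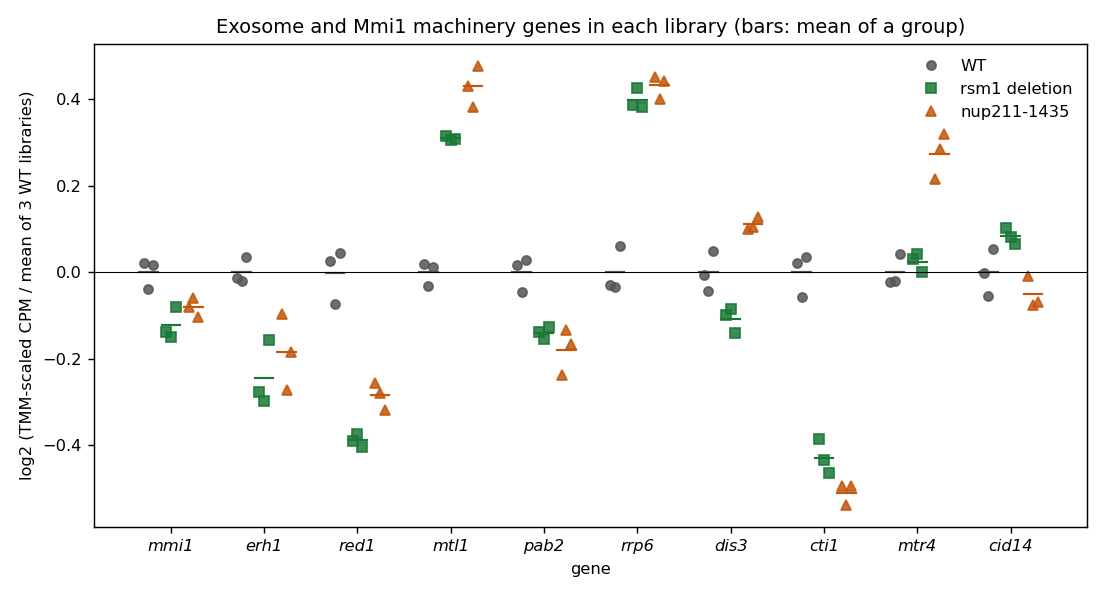
Level of each gene in each of the 9 libraries as the log2 ratio to the mean of the WT libraries (vertical axis); short bars are group means. The mutant libraries of rrp6 and mtl1 all lie above WT, those of red1 and cti1 all lie below it, and by this TMM scaling dis3 lies below WT in rsm1 deletion and above it in the nup211 mutant.

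Mmi1 and Erh1 form the complex that recognises meiotic RNA. The gene mmi1 (SPCC736.12c, chromosome III) had 91.1, 87.3 and 90.9 CPM in the WT libraries, 81.5, 80.8 and 84.9 in rsm1 deletion, and 84.9, 86.1 and 83.6 in the nup211 mutant. Every mutant library lay below every WT library, though by little. In rsm1 deletion mmi1 fell by 0.12 (log2, SE 0.04, adjusted p = 0.0056), a change of -8.19%, but under total-count scaling its value was 0.0195. In the nup211 mutant the log2 fold change was -0.08 (SE 0.03, adjusted p = 0.0528) and missed the threshold, with a 95% interval from -0.16 to -0.007. As in all bulk RNA, fewer cells with the transcript and less transcript per cell cannot be told apart.

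The Mmi1 partner gene erh1 (SPAC19G12.17, chromosome I) had 42.2, 42.0 and 43.6 CPM in WT, 35.1, 34.7 and 38.2 in rsm1 deletion, and 39.8, 35.3 and 37.5 in the nup211 mutant. No mutant library reached the WT range, and the spread within the mutants was wider than for the other genes (coefficient of variation 5.29% and 6.04%). It fell by 0.25 (SE 0.05, adjusted p = 0.000916) in rsm1 deletion and by 0.18 (SE 0.05, adjusted p = 0.00779) in the nup211 mutant. Both calls were lost under total-count scaling, at -0.10 and -0.05 and, as described with the exon lengths, once the trend with length was removed.

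Red1, a zinc-finger protein, is the scaffold of MTREC. Its gene red1 (SPAC1006.03c, chromosome I) had 113, 106 and 115 CPM in WT, 84.9, 85.8 and 84.0 in rsm1 deletion, and 93.1, 91.6 and 89.2 in the nup211 mutant. The 3 groups did not overlap, with WT highest and rsm1 deletion lowest. It fell by 0.39 (SE 0.04, adjusted p = 2.17e-07), a change of -23.6%, in rsm1 deletion and by 0.28 (SE 0.04, adjusted p = 7.52e-06), a change of -17.9%, in the nup211 mutant. The direct comparison put the nup211 mutant above rsm1 deletion by 0.10 (SE 0.04, adjusted p = 0.032). That last call was lost without any one of the 3 rsm1 deletion libraries or without nup211 mutant replicate 1 or 2, at adjusted p-values of 0.0536 to 0.0852.

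The scaffold's partner moved the other way. The MTREC helicase gene mtl1 (SPAC17H9.02, chromosome I) had 140.0, 135 and 139 CPM in WT, 172, 171 and 171 in rsm1 deletion, and 186, 180.0 and 192 in the nup211 mutant. The groups were again separate, now with WT lowest and the nup211 mutant highest. It rose by 0.31 (SE 0.03, adjusted p = 6.15e-07), or 23.9%, in rsm1 deletion and by 0.43 (SE 0.03, adjusted p = 1.98e-08), or 34.7%, in the nup211 mutant. The mutants differed by 0.12 (SE 0.03, adjusted p = 0.00632).

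Pab2, the nuclear poly(A)-binding protein, works with Mmi1 and the exosome on meiotic transcripts. Its gene pab2 (SPBC16E9.12c, chromosome II) had 176, 169 and 178 CPM in WT, 158, 156 and 159 in rsm1 deletion, and 148, 159 and 155 in the nup211 mutant. The mutant libraries overlapped one another and lay below all WT libraries. It fell by 0.14 (SE 0.03, adjusted p = 0.002) in rsm1 deletion and by 0.18 (SE 0.03, adjusted p = 0.000328) in the nup211 mutant. Under total-count scaling neither call held, and the values were 0.00245 in rsm1 deletion and -0.04 in the nup211 mutant.

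The nucleases of the exosome did not follow each other. The gene rrp6 (SPAC1F3.01, chromosome I) had 149, 149 and 159 CPM in WT, 199, 205 and 198 in rsm1 deletion, and 208, 201 and 207 in the nup211 mutant. Every mutant library lay above the highest WT library, and the mutants overlapped each other. The rise was 0.40 (SE 0.03, adjusted p = 5.52e-08), or 31.8%, in rsm1 deletion and 0.43 (SE 0.03, adjusted p = 2.89e-08), or 34.9%, in the nup211 mutant. The difference between the mutants was 0.03 with a 95% interval from -0.04 to 0.10 (adjusted p = 0.427).

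The catalytic subunit gene dis3 (SPBC26H8.10, chromosome II) had 212, 207 and 221 CPM in WT, 199, 201 and 194 in rsm1 deletion, and 229.0, 229.6 and 233 in the nup211 mutant. WT lay between the mutants and overlapped neither. It fell by 0.11 (SE 0.03, adjusted p = 0.00723) in rsm1 deletion and rose by 0.11 (SE 0.03, adjusted p = 0.00665) in the nup211 mutant, and the mutants differed by 0.22 (SE 0.03, adjusted p = 5.18e-05). The fall became 0.0348 under total-count scaling, whereas the difference between the mutants was 0.21 under that scaling.

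Cti1 is the fission yeast relative of the small Rrp6 cofactor called Rrp47 in budding yeast. Its gene cti1 (SPCC1739.07, chromosome III) had 75.5, 71.6 and 76.2 CPM in WT, 57.0, 55.1 and 53.9 in rsm1 deletion, and 52.8, 51.3 and 52.8 in the nup211 mutant. No mutant library reached the WT range, while rrp6 lay above WT in the same libraries. It fell by 0.43 (SE 0.04, adjusted p = 1.66e-07) in rsm1 deletion and by 0.51 (SE 0.04, adjusted p = 3.04e-08) in the nup211 mutant, changes of -25.6% and -29.7%. Of all features tested it stood at percentile 15 and 9.9 of the log2 fold changes, and it had the largest fall of the 10 genes in both mutants.

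TRAMP is represented by its helicase and its polymerase. The gene mtr4 (SPAC6F12.16c, chromosome I) had 323, 323 and 337 CPM in WT, 335, 337 and 328 in rsm1 deletion, and 380.4, 399 and 409 in the nup211 mutant. The first 2 groups overlapped and the third lay above both. In rsm1 deletion the log2 fold change was 0.02 (95% interval -0.05 to 0.10, adjusted p = 0.521). In the nup211 mutant it rose by 0.27 (SE 0.03, adjusted p = 3.2e-06), or 20.9%, and it was higher there than in rsm1 deletion by 0.25 (SE 0.03, adjusted p = 2.04e-05). With total-count scaling it was also called in rsm1 deletion, at 0.17, and with the length trend removed the rise in the nup211 mutant was 0.08.

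The polymerase gene cid14 (SPAC12G12.13c, chromosome I) had 161, 155 and 168 CPM in WT, 173, 171 and 169 in rsm1 deletion, and 161, 153 and 154 in the nup211 mutant. The rsm1 deletion libraries lay just above WT, and the nup211 libraries overlapped it. The rise of 0.08 (SE 0.03, adjusted p = 0.0447) in rsm1 deletion was lost with DESeq2, with RLE scaling and without the filter on low counts. It was also lost with the 2 groups fitted alone, with the length trend removed and when tested against 1.2-fold. The same held without WT replicate 1 or 2, any one rsm1 deletion library or nup211 mutant replicate 2. In the nup211 mutant the value was -0.05 (95% interval -0.13 to 0.02, adjusted p = 0.208). There it was called in opposite directions by alternatives, upward at 0.08 under total-count scaling and downward at -0.10 with the length trend removed. The difference between the mutants was -0.13 (SE 0.03, adjusted p = 0.00507).

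**Figure D3:**
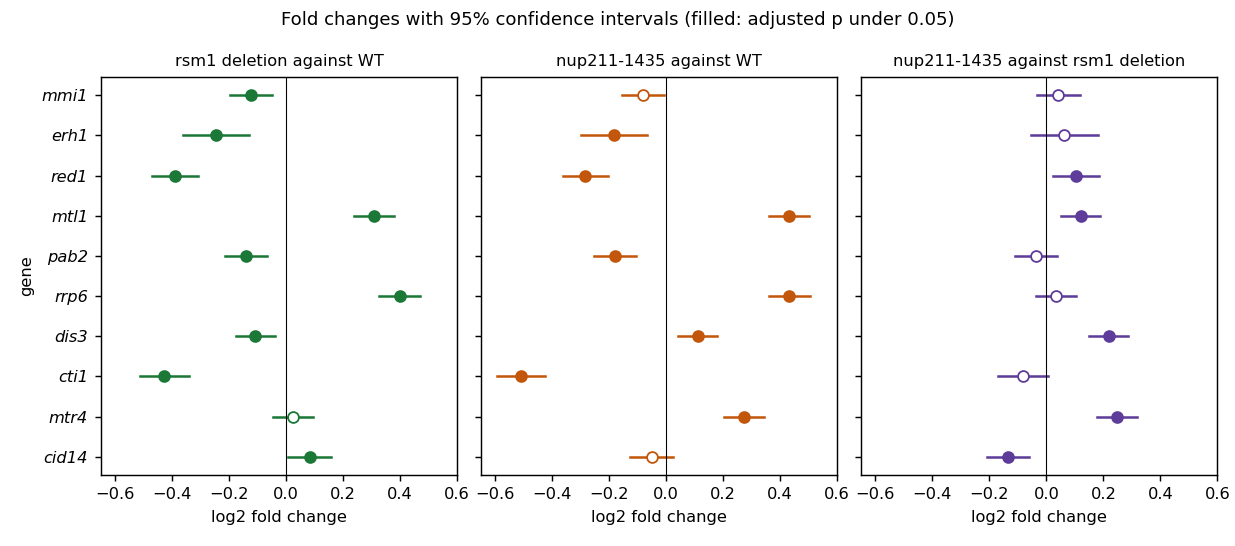
Log2 fold change of each gene (horizontal axis) with its 95% confidence interval in the 3 comparisons; filled points had an adjusted p under 0.05. The rises of rrp6 and mtl1 and the falls of red1 and cti1 are the 4 points farthest from 0 in the left panel, and dis3 and mtr4 have the largest differences between the mutants, 0.22 and 0.25.

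In the authors' deposited tables, whose column names are those of DESeq2, all 10 genes had the same sign as in the edgeR fit in each comparison with WT. In those tables cid14 in rsm1 deletion stood at 0.08 with an adjusted p of 0.0969, and mmi1 in the nup211 mutant at -0.08 with an adjusted p of 0.0894.

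A ratio of counts within a library does not depend on how libraries are scaled, so related factors were set against each other. The ratio of mtl1 to mtr4, the helicases of MTREC and TRAMP, was 0.434, 0.418 and 0.413 in the WT libraries. It was 0.514, 0.506 and 0.522 in rsm1 deletion and 0.490, 0.451 and 0.470 in the nup211 mutant. WT was lowest and rsm1 deletion highest, with no overlap; the means differed from WT by 1.22-fold and 1.11-fold. The ratio of the nuclease genes rrp6 to dis3 was 0.702, 0.718 and 0.719 in WT. It was 0.998, 1.016 and 1.024 in rsm1 deletion and 0.910, 0.875 and 0.887 in the nup211 mutant, again without overlap, 1.42-fold and 1.25-fold above WT. Each of the 6 differences had a two-sided exact permutation p of 0.1 (0.1 after Benjamini-Hochberg adjustment over the 6), the smallest that 3 against 3 libraries allow.

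**Figure D4:**
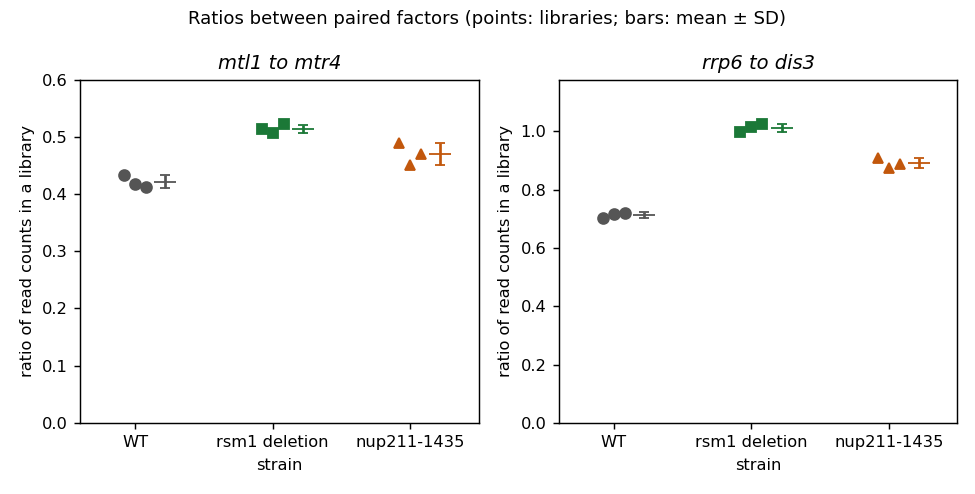
Ratio of read counts of mtl1 to mtr4 (left) and of rrp6 to dis3 (right) in each library, with the mean ± SD of each strain beside the points. In both panels WT lies lowest, the nup211 mutant lies between, and rsm1 deletion lies highest.

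The genes differ in length, and fold changes in both mutants followed exon length across the transcriptome. Protein-coding features under 1 kb of exon had a median log2 fold change of -0.19 in rsm1 deletion and -0.12 in the nup211 mutant, and those over 4 kb had 0.30 and 0.36. Across 4995 protein-coding features the Spearman correlation of exon length with the log2 fold change was 0.365 and 0.339, and across the 10 genes 0.479 and 0.600 (descriptions, since genes in a library share its depth and preparation). For the nup211 mutant against rsm1 deletion it was -0.138 across the protein-coding features but 0.733 across the 10 genes. The genes red1 (2446 nt) and rrp6 (2433 nt) have nearly the same exon length and lay on opposite sides of their class: the features of 2 to 2.5 kb had medians of 0.07 and 0.03. The features of 3 to 4 kb, the class of mtl1, mtr4 and dis3, had medians of 0.197 and 0.156. Their quartiles were 0.0227 and 0.4 in rsm1 deletion and -0.00861 and 0.33 in the nup211 mutant. Inside these quartiles lay mtl1 in rsm1 deletion, dis3 in the nup211 mutant and mtr4 in both. In the nup211 mutant mtl1 lay above them, and in rsm1 deletion dis3 lay below them.

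An alternative fit that removed the length trend in each library was added after the data had been seen. In it rrp6 kept its rises, at 0.30 and 0.37, and mtl1 rose by 0.10 and 0.26. The falls of red1 were then -0.49 and -0.35 and those of cti1 -0.39 and -0.48. The genes erh1 (both mutants) and pab2 (rsm1 deletion) lost their calls, while mmi1 was called in both, at -0.26 and -0.18. The rise of dis3 in the nup211 mutant became -0.03 and was not called, and mtr4 was called lower in rsm1 deletion, at -0.20, and higher in the nup211 mutant, at 0.08. The differences between the mutants were 0.26 for dis3 and 0.28 for mtr4 in this fit.

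**Figure D5:**
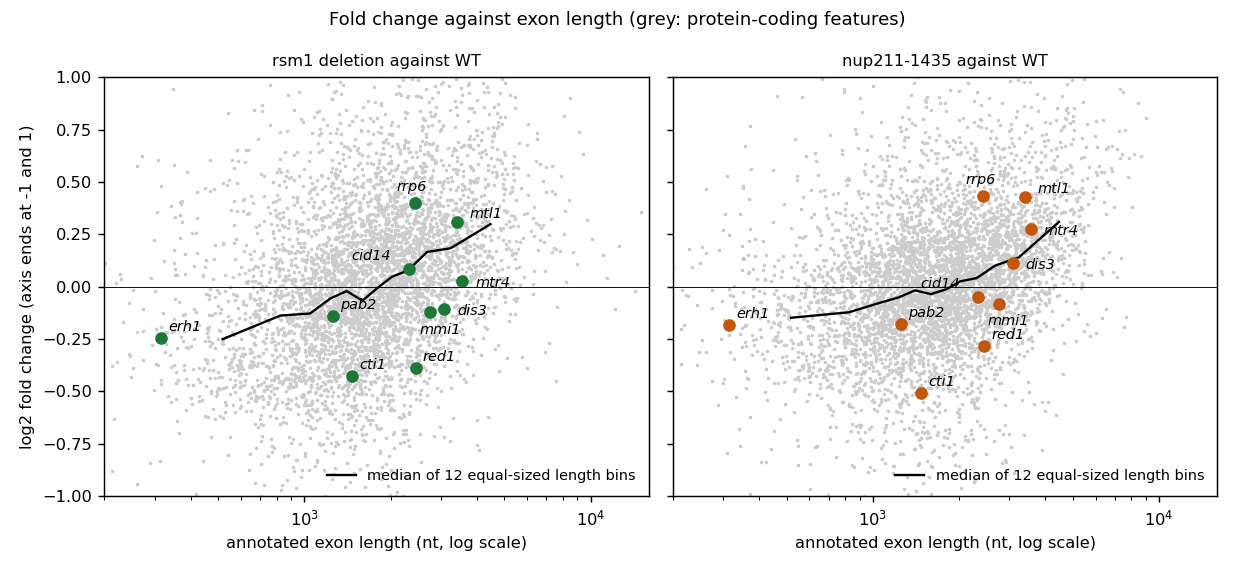
Log2 fold change (vertical axis, shown from -1 to 1) against annotated exon length (horizontal log axis) for protein-coding features in grey, with the 10 genes in colour and named. The black line, the median of length bins, climbs with length in both panels; red1 and cti1 lie below it and rrp6 above it in both.

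The genes also differ in introns. The coding parts of mmi1, erh1, red1 and pab2 hold 4, 5, 3 and 3 introns in the reference annotation, rrp6 and dis3 hold 1, and mtl1, mtr4, cid14 and cti1 hold none. All 4 genes with at least 3 introns had negative log2 fold changes in both mutants by TMM scaling. With total-count scaling mmi1 (both mutants) and pab2 (rsm1 deletion) were above 0. Of the genes without introns, cti1 had the largest falls of the 10 genes (-0.43 and -0.51). The values of mtl1 and mtr4 were positive in both mutants, and those of cid14 were 0.08 in rsm1 deletion and -0.05 in the nup211 mutant. Among the 660 protein-coding features with 3 or more introns, 39.8% fell and 32.7% rose in rsm1 deletion, and 30.3% fell and 31.5% rose in the nup211 mutant. Among the 2638 without introns, 32.1% fell and 44.5% rose in rsm1 deletion, and 32.3% and 38.6% in the nup211 mutant.

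Several of the genes share sequence with other features in the reference annotation, and the strand setting of the counting is not given in the sources used here. The largest overlap was at cti1, where SPCC1739.08c on the opposite strand shares 923 nt (62.7% of the exon) but had means of only 1.92, 3.27 and 2.40 CPM in WT, rsm1 deletion and the nup211 mutant. At pab2 the antisense RNA SPNCRNA.1478 (568 nt shared) rose from 3.16 CPM to 6.45 (log2 fold change 1.03, adjusted p = 2.32e-05) and 5.79 (0.87, adjusted p = 0.000148), while pab2 fell; SPNCRNA.1479 on the same strand shares 19 nt and stayed at or under 1.10 CPM on average. The antisense RNA SPNCRNA.735 at mtr4 (944 nt) had 3.93 to 4.45 CPM and SPNCRNA.638 at cid14 (774 nt) 0.458 to 0.814 CPM on average. Reads of such pairs cannot be told apart if strand was not used.

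Among overlapping coding neighbours, the4 on the strand opposite dis3 (122 nt shared) fell from 131 CPM to 71.5 and 50.9 (-0.88 and -1.37), whereas dis3 fell in rsm1 deletion and rose in the nup211 mutant. The neighbour asa1 of red1 (68 nt, opposite strand) fell by 0.45 in rsm1 deletion and stood at 0.04 in the nup211 mutant (adjusted p = 0.486), where red1 fell. The gene cid16, on the same strand as mtl1 (106 nt shared), rose by 0.34 and 0.38, close to the values of mtl1. Smaller overlaps were rdl1 with mtl1 (13 nt; 0.18 and 0.19), and gms2 (88 nt; 0.24 and 0.23) and pfs2 (21 nt; 0.35 and 0.33) with cid14.

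The other subunits of the exosome were looked up in a list of 10 that included dis3. The counts of this and the following lists stand against all features, of which 36.7% rose and 34.1% fell in rsm1 deletion and 32.9% rose and 32.0% fell in the nup211 mutant. In rsm1 deletion none rose and 6 fell (median -0.10), with rrp43 at -0.44, rrp45 at -0.37, rrp4 at -0.23 and mtr3 at -0.11; no member rose at an unadjusted p under 0.05 in edgeR either, and DESeq2 gave 0 rises and 6 falls. With total-count scaling 3 rose and 2 fell (median 0.04), and with the length trend removed 2 rose and 5 fell. In the nup211 mutant 4 rose and 1 fell (median 0.07; 6 and 0 with total-count scaling), with the RNA-binding cap subunit gene rrp40 at 0.27, rrp46 at 0.23 and rrp43 at -0.19. Directly compared, 7 of 10 were higher in the nup211 mutant and none was lower (median 0.19), with rrp45 at 0.46, rrp43 and rrp40 each at 0.255 and rrp46 at 0.22. The same counts of 7 and 0 were obtained with DESeq2, total-count scaling and the length trend removed, and no member was lower at an unadjusted p under 0.05. All features together had 24.5% higher and 25.7% lower in this comparison.

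The list of 6 nuclear cofactor and TRAMP genes included rrp6, cti1, mtr4 and cid14, described above. Of the 6, 3 rose and 2 fell in rsm1 deletion, and 2 rose and 1 fell in the nup211 mutant. Between the mutants 2 were higher and 1 was lower in the nup211 mutant. With total-count scaling 4 rose and 1 fell in rsm1 deletion and 5 rose and 1 fell in the nup211 mutant, and with the length trend removed 2 rose and 2 fell and 3 rose and 2 fell. Beside the genes above, the exosome cofactor gene mpp6 rose by 0.35 (SE 0.10, adjusted p = 0.00628) in rsm1 deletion. The TRAMP zinc-knuckle gene air1 fell by 0.14 (SE 0.05, adjusted p = 0.0151) there, and was higher by 0.12 in the nup211 mutant than in rsm1 deletion.

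The list of 14 genes for MTREC and Mmi1 partners included mmi1, erh1, red1, mtl1 and pab2, described above. Of the 14, 4 rose and 8 fell in rsm1 deletion, where 36.7% and 34.1% of all features did. The nup211 mutant had 3 rising and 6 falling, beside 32.9% and 32.0% of all features. Which direction prevailed turned with total-count scaling, to 6 rising and 3 falling in rsm1 deletion and 7 and 1 in the nup211 mutant, and with the length trend removed the counts were 2 and 6, and 3 and 8. The largest changes in rsm1 deletion were ctr1 at 0.88 (SE 0.15), red1, the cap-binding subunit gene cbc1 at -0.37 and the zinc-finger gene red5 at -0.35. Those in the nup211 mutant were ctr1 at 0.45, mtl1, red1 and pir2 at 0.28, the fission yeast Ars2. Between the mutants 5 were higher and 3 lower in the nup211 mutant, led by ctr1 at -0.43, cbc1 at 0.33, pir2 at 0.30 and nrl1 at -0.20.

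In the lists for other decay pathways, as among all features (70.7% called in rsm1 deletion and 64.9% in the nup211 mutant), most genes were called. Of 4 nuclear 5′ to 3′ decay and termination genes, 2 rose and 1 fell in each mutant: din1, the partner of the exonuclease Dhp1, fell by 0.44 and 0.40, pcf11 rose by 0.33 and 0.11 and dhp1 by 0.12 and 0.15. With the length trend removed the balance turned, to 1 rising and 2 falling in each mutant, and the medians went from 0.08 and 0.11 to -0.03 and -0.12. Between the mutants pcf11 was the one called, at -0.22, and 0 of the 4 were higher in the nup211 mutant (edgeR; also 0 at an unadjusted p under 0.05 and with DESeq2). Of 10 genes for Ccr4-Not and deadenylation, 3 rose and 3 fell in rsm1 deletion and 4 rose and 2 fell in the nup211 mutant, led by the scaffold gene not1 at 0.29 and 0.50, with caf1 at 0.24 and 0.17, pan3 at 0.25 and 0.22 and ccr4 at -0.13 and -0.10. With total-count scaling 0 of these 10 fell in either mutant, also at an unadjusted p under 0.05, and 6 and 7 rose, whereas with the length trend removed 3 rose and 4 fell in rsm1 deletion and 4 rose and 3 fell in the nup211 mutant. Between the mutants 3 were higher in the nup211 mutant (not1 0.21, pan2 0.19, mot2 0.12) and none was lower, also at an unadjusted p under 0.05 and with DESeq2.

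Of 11 genes listed for cytoplasmic decay, 6 rose and 2 fell in rsm1 deletion, 6 rose and 3 fell in the nup211 mutant, and 3 were higher and 4 lower between the mutants. The exonuclease gene dis32 rose by 0.84 and 0.71 and ski2 by 0.39 and 0.32, lsm1 fell by 0.85 and 0.67, and ski3 rose by 0.42 in the nup211 mutant, where it was higher than in rsm1 deletion by 0.38 (adjusted p = 2.45e-07). The decapping gene dcp1 fell by 0.25 in the nup211 mutant and was lower there than in rsm1 deletion by 0.35. The member pat1 rose by 1.01 in rsm1 deletion and was lower by 0.89 in the nup211 mutant than in rsm1 deletion. In fission yeast this symbol names the kinase that holds back meiosis, not the decapping factor called Pat1 in budding yeast. The counts of this list nevertheless include pat1, among the rises in rsm1 deletion and among the genes lower in the nup211 mutant than in rsm1 deletion. With the length trend removed 5 rose and 5 fell in rsm1 deletion and 3 rose and 3 fell in the nup211 mutant, and with total-count scaling 8 rose and 1 fell in the nup211 mutant.

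Mmi1's own antagonists and early targets were examined last. Of 9 genes, 4 rose and 1 fell in rsm1 deletion, where 70.7% of all features were called, and 4 rose and 2 fell in the nup211 mutant, where 64.9% were. With the length trend removed the counts were 4 and 1, and 3 and 2, and with total-count scaling 5 and 1, and 4 and 2. The noncoding RNA sme2, which sequesters Mmi1 in meiosis, rose by 1.52 (SE 0.14, adjusted p = 1.68e-07) and 1.53 (SE 0.14, adjusted p = 1.88e-07). The meiotic transcription factor gene mei4 rose by 1.2 (SE 0.16) and 1.11 (SE 0.16), and spo5 by 0.59 and 0.93. All of these RNAs stayed at low levels. In WT, rsm1 deletion and the nup211 mutant the means were 1.88, 5.38 and 5.44 CPM for sme2. They were 4.29, 9.92 and 9.21 for mei4 and 3.06, 4.62 and 5.82 for spo5. The gene mei2, for the RNA-binding protein that works with sme2, rose by 0.52 (SE 0.05) in rsm1 deletion and fell by 1.91 (SE 0.05) in the nup211 mutant, and mcp7 fell by 0.84 and by 1.22. Between the mutants 2 were higher and 2 lower, with mei2 at -2.43, mcp7 at -0.37, num1 (also called mcp5) at 0.35 and spo5 at 0.34; with DESeq2 or total-count scaling 1 was higher and 2 were lower. The genes ssm4, rec8 and crs1 were not called in any of the 3 comparisons.

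The profiles closest to mmi1 and rrp6 over the 9 libraries were found among 4888 features of at least 10 CPM, by Euclidean distance of centred log2 CPM. For mmi1 they were trr1 (0.0731), vps29 (0.0758) and spe2 (0.0763), with log2 fold changes of -0.16, -0.15 and -0.15 in rsm1 deletion. For rrp6 they were trk2 (0.0659), otu1 (0.0981) and SPAC4A8.06c (0.0985), with 0.40, 0.38 and 0.34.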

How the data were processed

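Polyadenylated RNA was measured in 9 libraries. The authors deposited raw read counts for 6988 features, and a table for each mutant with log2 fold changes and p-values. The submitters' processing notes name build ASM294v2 and, with no roles, the tools HTSeq 0.10.0, HISAT2 2.1.0, DESeq2 and SAMtools; no source used here gives the annotation or strand setting. Names, exon lengths and overlaps come from the RefSeq annotation of ASM294v3 (6836 features matched by identifier, 12 by synonym, 140 unmatched); no coordinates or sequences were taken from it because the builds differ.

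The counts were tested with edgeR 4.0.16 under R 4.3.3: filterByExpr (minimum count 10, minimum total 15), TMM scaling, and robust quasi-likelihood tests on all 9 libraries without covariates, two-sided, adjusted by Benjamini-Hochberg over 6227 features and called under 0.05. All adjusted p-values are from this test unless another is named. Alternatives included DESeq2 1.42.0. The script was tested on simulated data. Totals were 20.98 to 28.11 M counts; replicate pairs differed by more than sampling noise (chi-square per degree of freedom 2.82 to 12.1).

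The 10 genes and the gene lists were chosen with earlier results of these data known. Named were all 10 genes, features overlapping them, up to 4 called genes of largest change per list and comparison, and the 3 nearest profiles of mmi1 and rrp6; ssm4, rec8 and crs1 were named after their values were seen.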

Additional observations from a re-analysis of the deposited data

Results flagged for a closer look

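The exosome nuclease gene dis3 was singled out because its changes in the mutants had opposite signs and the direct comparison of the mutants was called. It fell by 0.11 in rsm1 deletion and rose by 0.11 in the nup211 mutant against the same WT libraries. The nup211 mutant exceeded rsm1 deletion by 0.219 (edgeR, adjusted p = 5.18e-05), with all 3 nup211 mutant libraries above all 3 rsm1 deletion libraries. That call was part of the rule that picked dis3, so it is no separate support. In that comparison 50.2% of all features were called and 59% had groups that did not overlap. The opposite signs did not hold with total-count scaling or with the length trend removed, while the difference between the mutants was 0.211 and 0.260 in those fits.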

How the results depend on the processing

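The rises of rrp6 in both mutants and of mtl1 in the nup211 mutant, and the falls of cti1 in both mutants and of red1 in rsm1 deletion, kept their direction and their call in all 17 alternatives. Tested against a change of 1.2-fold, 3 of the 10 genes were called in rsm1 deletion (red1, rrp6, cti1) and 3 in the nup211 mutant (mtl1, rrp6, cti1). Between the mutants 0 were called (edgeR, also 0 at an unadjusted p under 0.05). Of all features 37.0%, 29.2% and 11.3% were called in that test. DESeq2 against no change called 8, 8 and 5 of the 10 genes, beside 63.7%, 58.1% and 44.9% of all features. With total-count scaling the direction of mmi1 (0.0195), dis3 (0.0348) and pab2 (0.00245) in rsm1 deletion and of mmi1 (0.0537, called in neither fit) and cid14 (0.0836) in the nup211 mutant turned. With the length trend removed, an alternative chosen after seeing the data, mtr4 (-0.20) and cid14 (-0.0036) in rsm1 deletion and dis3 (-0.0277) in the nup211 mutant turned, as did the difference of erh1 between the mutants (-0.0022, called in neither fit). The cause was not tested. Without one library each, 8 to 9, 8 to 9 and 4 to 5 genes were called. Of all features 66.7%, 60.6% and 49% were called without WT replicate 1, for example, and 65.5%, 63.5% and 42.2% without rsm1 deletion replicate 2. The cid14 call in rsm1 deletion was lost without WT replicate 1 or 2, any rsm1 deletion library or nup211 mutant replicate 2 (adjusted p = 0.0553 to 0.174), and mmi1 was called in the nup211 mutant without WT replicate 2 or rsm1 deletion replicate 3 (0.0311 and 0.0469). Same-numbered libraries had correlations of deviations from -0.0634 to 0.0969, beside -0.13 to 0.0632 for differently numbered ones. The highest were between the mutants, 0.0969 for replicate 1 and 0.0938 for replicate 3, and 4 of 9 libraries were closest to their own number. A replicate block gave the same counts of 9, 8 and 5, beside 70.5%, 65.2% and 50.3% of all features, and changed none of 30 calls. Ratios between genes kept their direction without any one library, which was fixed in advance because their groups did not overlap. With 3 libraries a group, exact tests could not go below 0.1.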
